A study of Arabidopsis thaliana with 19 samples.

Results

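Lipid transfer proteins are small secreted proteins, held in shape by disulfide bridges between conserved cysteines, with a hydrophobic pocket that binds fatty acids and other lipids. They move through the cell wall and are known for their part in delivering wax and cutin precursors from epidermal cells to the cuticle, and in defence and stress responses. Members of the G type carry a glycosylphosphatidylinositol (GPI) anchor that holds them at the outer face of the plasma membrane. Transcripts of 9 Arabidopsis thaliana genes of this family, LTP1 (AT2G38540), LTP2 (AT2G38530), LTP3 (AT5G59320), LTP4 (AT5G59310), LTP5 (AT3G51600), LTP6 (AT3G08770), LTP12 (AT3G51590), LTPG1 (AT1G27950) and LTPG2 (AT3G43720), were followed across 7 cell populations of the shoot apex. The genes were chosen by locus, and each had a probe set among the 21021 loci of the authors' deposited table of averaged intensity.

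RNA came from sorted cells of plants that all carried the ap1-1 and cal1-1 mutations and were 28 days old. The shoot tips of such plants make many meristems in place of flowers, and no population of other genotype was included. Apices were protoplasted, cells with a fluorescent reporter were sorted, and their RNA went through 2 rounds of amplification before hybridisation to 19 Affymetrix ATH1 arrays, so every population shares the handling. A reporter marks the cells in which its promoter is active rather than a tissue cut by position. AtML1 (2 arrays) and HMG (3 arrays) are both labelled epidermal, and the gene behind HMG is not given in the sources used here. HDG4 (3 arrays) is labelled subepidermal, KAN1 (3 arrays) organ circumference, LAS (2 arrays) adaxial, AtHB8 (3 arrays) xylem, with the word stem, and S17 (3 arrays) phloem.

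The 6 epidermal markers ATML1, PDF2, PDF1, ACR4, FDH and HTH were checked against the labels. Their summed signal was 44498 to 50270 on the 5 AtML1 and HMG arrays, 32653 to 36281 on KAN1, 18755 to 24028 on LAS, 2666 to 3434 on HDG4 and 610 to 1253 on the vascular arrays. PDF2 was called absent on all AtHB8 arrays, and PDF2 and ACR4 on all S17 arrays. The 5 xylem and procambium markers summed to 17802 to 21233 on AtHB8, 3775 to 4702 on S17 and at most 407 outside the vascular populations. ATHB8, PXY and TMO5 made up most of the AtHB8 sum (means 9303, 6286 and 3324). ATML1 and ATHB8 share their names with the AtML1 and AtHB8 reporters used for sorting, so they are no independent check of those labels. IRX3 had a mean of 177 there, and XCP1 was called absent on 2 of the 3 AtHB8 arrays. The 4 phloem markers summed to 11689 to 13813 on S17, 4138 to 6048 on AtHB8 and 1558 to 3076 on HDG4. On KAN1 they summed to 580 to 1167, and on AtML1, HMG and LAS to at most 137. BAM3 made up most of the S17 and AtHB8 sums (means 10722 and 4643), and APL and SEOR1 were called absent on all AtHB8 arrays. SEOR1, of the sieve elements, was higher in HDG4 (mean 1516) than in S17 (mean 711), so phloem transcripts were measured in the HDG4 population as well. Their part in the HDG4 results was not tested. The epidermal marker sum thus moved across the populations in the same direction as most lipid transfer protein genes described below, and its part in those differences was not tested. In sorted bulk RNA, fewer cells of a type and less RNA per cell cannot be told apart.

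Signals are the authors' MAS5 intensities, which are linear and scaled to 1 target on every array (array medians 152 to 183). A signal belongs to its own probe set, so levels were compared between populations and not between genes. Differences were tested with limma on log2(signal + 1) over all 19 arrays, are given with their standard errors (SE), and were called where the p adjusted by Benjamini-Hochberg over all probe sets was under 0.05 and the difference was 2-fold or more. Nothing in the labels ties replicates to separate plants or sorts, so the p-values cover a spread between arrays that may be technical. The AtML1 and HMG means, weighted equally, are called the epidermis. The number of arrays limits the precision.

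Of the 9 genes, 8 were bright enough in at least 1 population to be tested: 7 of 7 populations passed the filter on low signals for LTP1 and LTP6, 6 for LTP2, 5 for LTPG1 and LTPG2, 4 for LTP3 and LTP5, and 3 for LTP4. LTP12, a gene known from the tapetum of the anther, was called absent on all 19 arrays, with signals of 2.69 to 88.2, and was not tested. All 8 tested genes differed among the populations by limma's moderated F test, as did 75.2% of the 15149 probe sets tested. LTPG2 ranked 13, LTPG1 22 and LTP1 29 by F among all probe sets, and LTP4 came last of the 8 at rank 2644 (adjusted p = 1.6e-05). These 8 passed the filter mostly through the populations in which they are high, so the counts below describe them and are no test of the family.

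**Figure D1:**
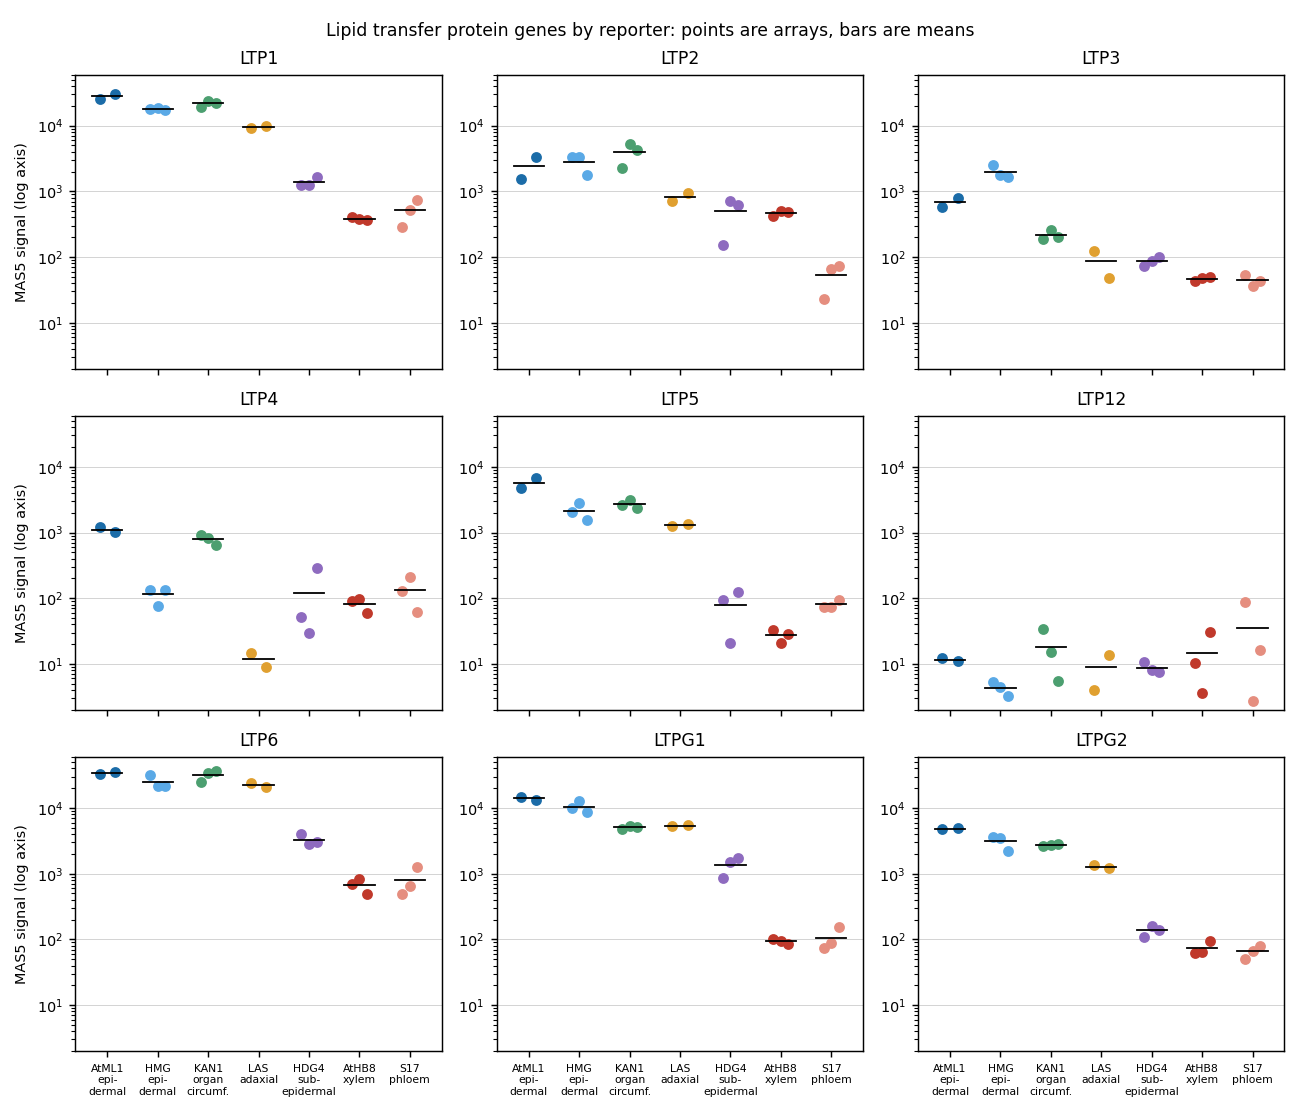
MAS5 signal (vertical log axis) of the 9 genes in the 7 reporter populations (horizontal axis). Points are arrays and bars are means of 2 or 3 arrays. LTP1, LTP5, LTP6, LTPG1 and LTPG2 are high on AtML1, HMG, KAN1 and LAS arrays and lower on HDG4, AtHB8 and S17 arrays. Among these lower arrays, HDG4 lies above AtHB8 and S17 in LTP1, LTP6, LTPG1 and, by less, LTPG2. LTP3 peaks on HMG and LTP4 on AtML1 and KAN1.

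The epidermis, as the mean of AtML1 and HMG, stood above the vascular populations in all 8 tested genes. The difference was largest in LTPG1, at 122-fold, and smallest in LTP4, at 3.52-fold, with LTPG2 at 56.0-fold. The fit gave 72.1-fold for LTP5, but no AtHB8 array was called present for it, so that size is uncertain. Called differences were 29.0% of all probe sets in this comparison, and 13.0% were called higher in the epidermis. The median log2 difference was 5.54 over the 8 genes and 0.11 over all probe sets tested. The epidermal and vascular arrays overlapped in LTP4. Its mean log2 signal was 10.1 in AtML1 but 6.81 in HMG, against 6.64 over the vascular populations. Against the subepidermal HDG4 cells the epidermis was again higher in all 8, with 9.64% of all probe sets called, 5.69% as higher and 3.95% as lower. The median log2 difference there was 3.46 against -0.07 over all probe sets. For LTP4 the lead over HDG4 likewise came mostly from AtML1, as given below.

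LTPG1 and LTPG2, the GPI-anchored proteins known to be needed for export of cuticular wax, had the largest F of the 8 genes. LTPG1 read 14818 and 13108 on the AtML1 arrays, 10097, 12762 and 8588 on HMG, 4857, 5242 and 5201 on KAN1, and 5392 and 5423 on LAS. On HDG4 it read 846, 1513 and 1711, on AtHB8 102, 95.6 and 85, and on S17 74.2, 88.9 and 155. The AtML1 and HMG arrays lie above all KAN1 and LAS arrays, these above all HDG4 arrays, and the vascular arrays at the bottom, with no overlap between these 4 levels. LTPG1 was higher in the epidermis than in vascular cells by 6.93 ± 0.20 on the log2 scale (limma adjusted p = 1.15e-12) and than in HDG4 by 3.21 ± 0.24 (9.24-fold, limma adjusted p = 2.46e-07). HDG4 in turn lay above S17 by 3.67 (limma adjusted p = 4.93e-08). The epidermis as a whole was also called above KAN1 and LAS, as given below, although the single step from HMG to LAS did not pass (log2 0.94, limma adjusted p = 0.0598).

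LTPG2 read 4821 and 4931 on AtML1, 3626, 3538 and 2246 on HMG, 2669, 2733 and 2810 on KAN1, and 1347 and 1209 on LAS. Its signals were 108, 163 and 141 on HDG4, 62.8, 63.3 and 93.5 on AtHB8, and 50.3, 67.2 and 79.3 on S17. The LAS arrays lie below all others of the upper group, and the HDG4 arrays lie just above the vascular ones, by 0.90 over AtHB8 on the log2 scale (limma adjusted p = 0.00349). LTPG2 was 28.4-fold higher in the epidermis than in HDG4 (log2 4.83 ± 0.20, limma adjusted p = 6.18e-10), against 9.24-fold for LTPG1, although both were far above the vascular arrays. KAN1 exceeded LAS by 1.10 on the log2 scale (limma adjusted p = 0.00775) and LAS exceeded HDG4 by 3.23 (limma adjusted p = 2.63e-06).

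LTP1 and LTP6 encode soluble, secreted proteins. LTP6 read 33152 and 35295 on AtML1, 31685, 21288 and 21650 on HMG, 25245, 33982 and 36430 on KAN1, and 23678 and 20790 on LAS. On HDG4 it read 3999, 2796 and 3030, on AtHB8 697, 836 and 487, and on S17 494, 652 and 1280. Both AtML1 arrays lie above all HMG and LAS arrays, the KAN1 arrays overlap AtML1 and HMG, and HDG4 and the vascular arrays lie far below. The LTP6 signal was itself the array's maximum on 5 of the 19 arrays, and whether the top of the measured range holds back differences was not tested. LTP6 differed from the epidermis by -0.12 ± 0.27 for KAN1 (epidermis minus KAN1, limma adjusted p = 0.797) and by 0.38 ± 0.31 for LAS (limma adjusted p = 0.499). It was 8.93-fold higher in the epidermis than in HDG4 (log2 3.16 ± 0.27) and 41.3-fold higher than in vascular cells (log2 5.37 ± 0.23), and was called present on all 19 arrays, vascular ones included.

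LTP1 read 25893 and 30616 on AtML1, 17872, 18553 and 17198 on HMG, 19060, 24089 and 22432 on KAN1, and 9142 and 9968 on LAS. On HDG4 it read 1232, 1228 and 1635, on AtHB8 400, 382 and 365, and on S17 283, 516 and 744. LAS sits below every other array of the upper group here, unlike in LTP6. The epidermis exceeded LAS in LTP1 by 1.23 ± 0.26 on the log2 scale (2.35-fold, limma adjusted p = 0.00788), a call that was lost when either LAS array was left out (limma adjusted p = 0.0883 without replicate 1 and 0.0546 without replicate 2). The log2 difference in LTP1 between epidermis and KAN1 was 0.04 ± 0.23 (limma adjusted p = 0.919).

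LTP5, whose protein is known from work on pollen tube guidance, read 4841 and 6697 on AtML1, 2042, 2808 and 1534 on HMG, 2632, 3097 and 2336 on KAN1, and 1268 and 1359 on LAS. It was called absent on all 3 HDG4 arrays, at 94.2, 20.5 and 124. On AtHB8 it read 32.8, 20.6 and 28.3, and on S17 74.4, 74.6 and 93.8. LTP5 was therefore at least 46.8-fold higher in the epidermis than in HDG4 (limma adjusted p = 1.43e-07), a bound that fell to 31.5-fold without HDG4 replicate 3. Such a bound sets each array of the dim group at the higher of its own signal and a floor. The floor is the array's lowest signal among probe sets called present on all arrays of that reporter. KAN1 exceeded HDG4 in LTP5 at least 36.5-fold (limma adjusted p = 1.58e-06), and at least 24.5-fold without HDG4 replicate 3.

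LTP2 varied more between replicates than the genes above, with 1518 and 3345 on AtML1, 3325, 3381 and 1785 on HMG, 2303, 5312 and 4244 on KAN1, and 715 and 942 on LAS. It read 151, 725 and 630 on HDG4, 428, 506 and 493 on AtHB8, and 22.6, 66.9 and 73.1 on S17, where it was called absent on all 3 arrays. From LAS down to HDG4 the levels run into each other, and only S17 stands apart at the bottom. HDG4 exceeded S17 in LTP2 at least 7.34-fold (limma adjusted p = 0.000279), and no other pair of neighbours in its order passed. LTP2 was 6.01-fold higher in the epidermis than in HDG4 (log2 2.59 ± 0.51, limma adjusted p = 0.00206), or 3.66-fold without HDG4 replicate 1. Over the vascular cells it was 16.2-fold higher (log2 4.02 ± 0.42, limma adjusted p = 9.1e-07), where the vascular mean includes the absent S17 signals. KAN1 was 9.06-fold above HDG4 in LTP2, or 5.51-fold without HDG4 replicate 1.

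**Figure D2:**
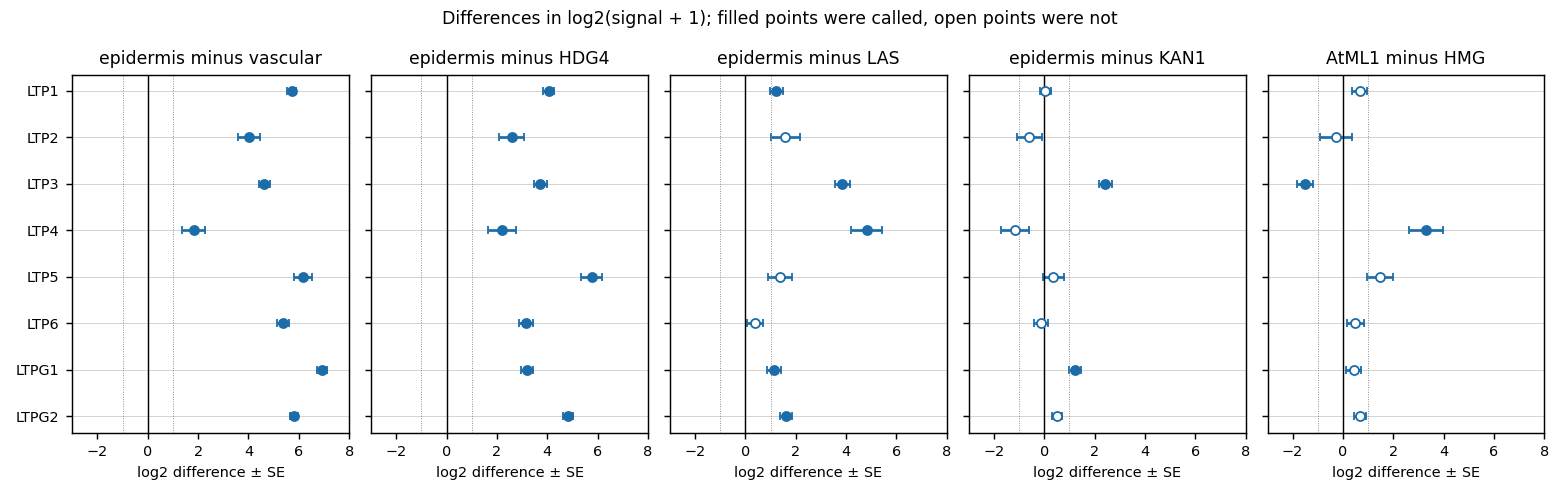
Log2 differences (horizontal axis, in log2(signal + 1), with bars of 1 SE) of the 8 tested genes in 5 comparisons. Filled points were called at adjusted p under 0.05 and 2-fold, and dotted lines mark 2-fold. All 8 points lie above 2-fold for the vascular and HDG4 comparisons, whereas the KAN1 panel holds 2 called genes and LTP3 and LTP4 are called in opposite directions between AtML1 and HMG.

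Cells of the KAN1 reporter, labelled organ circumference, differed from the epidermis in 2 of the 8 genes. LTP3 and LTPG1 were called higher in the epidermis and none of the 8 genes was called higher in KAN1, while 8.89% of all probe sets were called, 2.60% higher and 6.29% lower in the epidermis. LTP3 was 5.36-fold higher in the epidermis (log2 2.42 ± 0.26, limma adjusted p = 1.48e-05) and LTPG1 2.36-fold (log2 1.24 ± 0.24, limma adjusted p = 0.00241). The other 6 ranged from -1.17 ± 0.55 for LTP4 (limma adjusted p = 0.155) to 0.50 ± 0.20 for LTPG2 (limma adjusted p = 0.101), and a missed threshold does not show that their levels are alike. LTP4 was called higher in KAN1 with the replicate number as a block (limma adjusted p = 0.0236), with array weights (0.0212) and without HDG4 replicate 4 (0.0286). Against HDG4, KAN1 was higher in all 8 genes. The background was 14.8% of probe sets called, 9.80% higher and 4.96% lower in KAN1. These differences ran from 2.45-fold for LTP3 (log2 1.29 ± 0.29, limma adjusted p = 0.00371) to at least 36.5-fold for LTP5, with 20.1-fold for LTPG2 and 16.1-fold for LTP1. The actin 3'/5' signal ratio, a measure of RNA length, was 5.50 ± 0.918 (SD, n = 3) on KAN1 and 11.8 ± 3.58 (SD, n = 16) on the other arrays, and its part in the KAN1 results was not tested.

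LAS cells, labelled adaxial, were lower than the epidermis in 5 of the 8 genes and higher in none, with 5.97% of all probe sets called, 3.89% higher and 2.07% lower in the epidermis. The 5 were LTP1, LTP3, LTP4, LTPG1 and LTPG2. LTP4 was at least 14.6-fold lower in LAS (limma adjusted p = 0.000218). LTP3 was 14.5-fold lower (log2 3.85 ± 0.30, limma adjusted p = 2.17e-06), or 23.0-fold without LAS replicate 1 and 9.10-fold without LAS replicate 2, and 1 of these arrays was called present and 1 absent. LTPG1 was 2.22-fold lower in LAS (log2 1.15 ± 0.28, limma adjusted p = 0.0174), a call also lost without either LAS array (limma adjusted p = 0.123 without replicate 1 and 0.109 without replicate 2), which left 3 genes called. LTP2 differed by 1.59 ± 0.58 (limma adjusted p = 0.101) and LTP5 by 1.38 ± 0.48 (limma adjusted p = 0.0839), and both passed when an HDG4 array was left out of the shared estimate of the spread (LTP2 without replicate 1, limma adjusted p = 0.0384, and LTP5 without replicate 3, limma adjusted p = 0.00251, or replicate 4, limma adjusted p = 0.0467).

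LTP3 and LTP4 are neighbouring genes whose transcripts are known to be induced by abscisic acid, the hormone of drought responses. Their levels ran differently from each other across the populations. LTP3 read 2513, 1761 and 1627 on HMG, 576 and 785 on AtML1, 185, 254 and 202 on KAN1, and 124 and 48.6 on LAS. On HDG4 it read 72.4, 86.2 and 102, on AtHB8 42.7, 48.1 and 48.9, and on S17 53.6, 36.1 and 43, with S17 called absent throughout. LTP3 falls in steps that do not overlap from HMG to AtML1 to KAN1 to HDG4. Each of these steps passed, with 1.52 (limma adjusted p = 0.0106), 1.66 (limma adjusted p = 0.00342) and 1.29 (limma adjusted p = 0.00371) on the log2 scale, and no step further down did.

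LTP4 read 1209 and 1002 on AtML1 and 910, 833 and 652 on KAN1, against 133, 76.6 and 134 on HMG. It read 14.9 and 8.85 on LAS, where both arrays were called absent, and 50.9, 29.9 and 284 on HDG4, where 1 of the 3 arrays was called present. On AtHB8 its signals were 90.7, 97 and 60.4 and on S17 129, 213 and 62.6, with all 6 vascular arrays called present. AtML1 and KAN1 thus stand above all other arrays, LAS below all others, and the HMG arrays lie within the range of the vascular and HDG4 arrays.

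The difference between the AtML1 and HMG populations, which share the label epidermal, was opposite in these neighbours. LTP4 was 9.84-fold higher in AtML1 (log2 3.30 ± 0.69, limma adjusted p = 0.0101) and LTP3 was 2.87-fold higher in HMG (log2 difference AtML1 minus HMG -1.52 ± 0.32, limma adjusted p = 0.0106). These were the calls among the 8 genes, where 5.01% of all probe sets were called, 2.69% higher and 2.32% lower in AtML1. Both rest on 2 AtML1 arrays and were lost without AtML1 replicate 1 (limma adjusted p = 0.0762 for LTP4 and 0.104 for LTP3), and LTP4 also without AtML1 replicate 3 (limma adjusted p = 0.0549). The other 6 genes differed between AtML1 and HMG by -0.27 ± 0.63 (LTP2) to 1.46 ± 0.52 (LTP5, limma adjusted p = 0.0805), with none called. LTP5 passed there without HDG4 replicate 3 (limma adjusted p = 0.00657) or replicate 4 (limma adjusted p = 0.0484). None of the 6 epidermal markers was called between AtML1 and HMG.

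The epidermal mean of LTP4 is therefore taken over unlike populations. AtML1 exceeded HDG4 14.3-fold in LTP4 (log2 3.84, limma adjusted p = 0.00116), while HMG minus HDG4 was 0.54 (limma adjusted p = 0.604). HMG was 7.07-fold below KAN1 (log2 -2.82, limma adjusted p = 0.00449) and did not differ beyond the spread from S17 (log2 -0.11, limma adjusted p = 0.891). For LTP3 the order was reversed, with HMG 9.08-fold above KAN1. LTP4's call between epidermis and HDG4 (4.56-fold, log2 2.19 ± 0.55, limma adjusted p = 0.011) was lost without HDG4 replicate 1 (limma adjusted p = 0.0508) or replicate 3 (2.89-fold, limma adjusted p = 0.0806) and rose to 8.77-fold without replicate 4. KAN1 was 10.3-fold above HDG4 in LTP4 (log2 3.36 ± 0.61), or 6.51-fold without HDG4 replicate 3 and 19.8-fold without replicate 4.

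**Figure D3:**
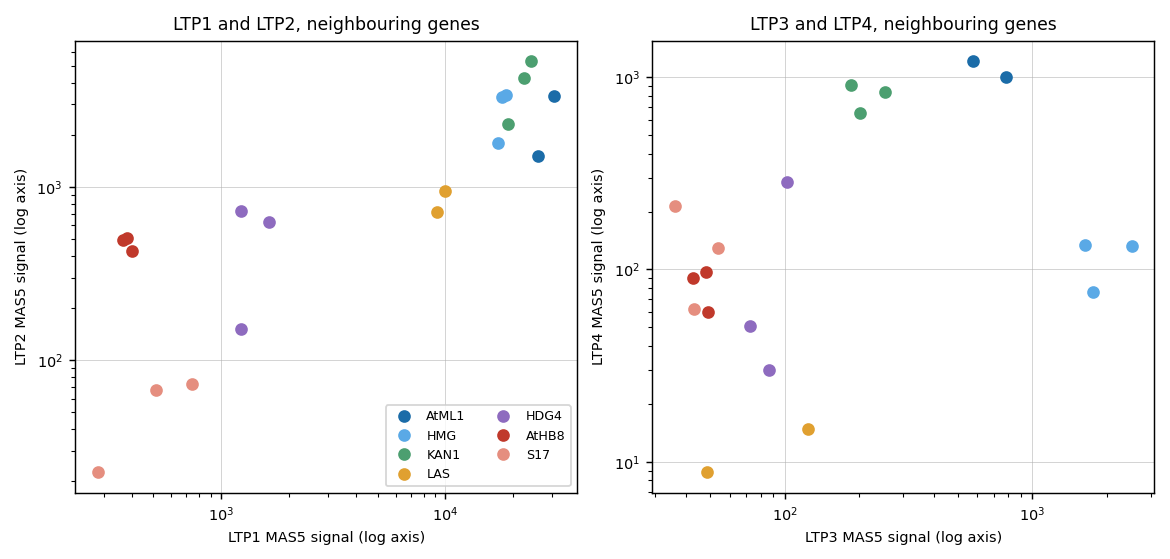
MAS5 signals of neighbouring genes plotted against each other on log axes, LTP1 against LTP2 and LTP3 against LTP4, with 1 point per array coloured by reporter. LTP1 and LTP2 rise together over most arrays, with the 3 AtHB8 arrays at low LTP1 and LTP2 signals of 428 to 506, while in LTP3 and LTP4 the 3 HMG arrays lie at high LTP3 and low LTP4 and the 3 KAN1 arrays at high LTP4 and LTP3 signals of 185 to 254.

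In RefSeq's gene table no protein-coding gene lies between LTP1 and LTP2, between LTP3 and LTP4, or between LTP5 and LTP12. Levels of these pairs were compared as patterns over the 19 arrays, which share the populations, so the correlations are descriptions. Pearson's r of log2(signal + 1) was 0.839 for LTP1 and LTP2 and 0.374 for LTP3 and LTP4. Over all 28 pairs of the 8 tested genes r ranged from 0.27 to 0.99 with a median of 0.82. The 7 pairs that involve LTP4 ran from 0.27 to 0.45 and the other 21 from 0.71 to 0.99, with the highest for LTP1 with LTP6 and LTP1 with LTPG2. Over the 13 arrays outside the vascular populations, a subset chosen after seeing the data, the range was 0.34 to 0.99 with a median of 0.75.

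Within the vascular populations most of these genes were low, and 6 of the 8 were not called between AtHB8 and S17, where 8.56% of all probe sets were, 4.20% higher and 4.36% lower in AtHB8. LTP2 was at least 8.47-fold higher in AtHB8 (log2 3.27 ± 0.56, limma adjusted p = 0.00105). LTP5 was called lower in AtHB8 (limma adjusted p = 0.0338), but its AtHB8 calls were 1 marginal and 2 absent, so no fold is given. That call was lost without any 1 of the 6 vascular arrays (limma adjusted p = 0.0546 to 0.114). The LTP2 signal of 428 to 506 on AtHB8 lies within the HDG4 range of 151 to 725.

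Taking each gene's populations in order of level, 17 of 48 neighbouring pairs passed an adjusted p under 0.05. The share of all probe sets that pass for each pair of populations is given beside this count. That share also covers probe sets in which the pair are not neighbours in level, so it is not a like baseline for the count. With AtML1 that share was 10.6% for HMG, 21.5% for HDG4, 15.4% for KAN1, 8.32% for LAS, 47.4% for AtHB8 and 50.2% for S17. With HMG it was 14.6% for HDG4, 20.4% for KAN1, 10.8% for LAS, 45.7% for AtHB8 and 51.4% for S17, and with KAN1 29.8% for HDG4, 18.7% for LAS, 41.3% for AtHB8 and 45.2% for S17. HDG4 gave 5.82% with LAS, 54.1% with AtHB8 and 56.7% with S17, LAS gave 50.4% with AtHB8 and 53.6% with S17, and AtHB8 with S17 gave 15.6%. A passing step between a vascular population and another thus falls where 41.3% to 56.7% of all probe sets pass. For LTP1 the order ran AtML1, KAN1, HMG and LAS, then HDG4, then S17 and AtHB8, and the 2 passing steps were LAS to HDG4 (2.82, limma adjusted p = 2.51e-05) and HDG4 to S17 (limma adjusted p = 0.000136). LTP6 had the same order and the same passing steps. For LTP5 the step from LAS to S17 passed (4.01, limma adjusted p = 1.39e-05). The 17 include 1 step, LTP5 in HDG4 over AtHB8, with no present call on either side, which orders no expression. In LTP4 they were KAN1 over S17 (2.71, limma adjusted p = 0.0021) and HDG4 over LAS (at least 3.20-fold, limma adjusted p = 0.0333), where 2 of the 3 HDG4 arrays were also called absent.

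The transcripts most like each gene over the 19 arrays were taken from 14308 tested probe sets with 1 locus. CAD9 (r = 0.996), AT1G17200 (0.996) and PDF1 (0.994), the epidermal marker, were most like LTP1, and over the 7 population means these values were 0.999, 0.999 and 0.997. LTP6 was nearest to AT4G29030 (0.995), PDF1 (0.992) and AT1G17200 (0.989). LTPG1 was nearest to ABCG11 (0.986), an exporter of wax and cutin lipids, CER3 (0.984), an enzyme of wax alkane synthesis, and AT1G78210 (0.983). LTPG2 was nearest to AT3G05600 (0.991), SBT1.3 (0.990) and ABCG18 (0.989). LTP5 was nearest to RD22 (0.971), a dehydration-responsive gene, LPAT5 (0.966) and DRB5 (0.965), and LTP2 to AT3G48410 (0.946), HON4 (0.941) and AAC3 (0.937).

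LTP3 was nearest to AT2G39360 (0.946), AT1G13970 (0.923) and AT5G49120 (0.921). LTP4 had no transcript over 0.9, against 202 for LTPG1 and 11 for LTP3, and its nearest were CER4 (0.874), an enzyme of wax alcohol synthesis, CYP710A2 (0.839) and AT5G49500 (0.834).

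Further members of the wider family did not share 1 pattern. Of 13 other lipid transfer protein genes listed, 11 had a probe set and 5 passed the filter, and the 3 with the largest F are described. AT3G18280 had means of 7407 in AtHB8 and 3529 in S17 and of at most 94.7 in the other populations, and was at least 141-fold lower in the epidermis than in vascular cells (limma adjusted p = 3.9e-09). DIR1, known as a carrier of the systemic resistance signal, had means of 1119 in KAN1 and 828 in LAS against 150 in AtML1 and 45.4 in HMG, and was 13.9-fold lower in the epidermis than in KAN1 (log2 -3.80, limma adjusted p = 6.59e-07). AT5G01870 had means of 292 in AtML1 and 102 in HMG and was called higher in the epidermis than in each of HDG4, KAN1, LAS and the vascular cells. In all, 2 of these 5 were called higher and 1 lower in the epidermis than in vascular cells, where 1964 of the 15149 probe sets were called higher and 2425 lower. Against KAN1, 1 was higher and 3 lower in the epidermis (2.60% and 6.29% of all probe sets). All 5 were called higher in KAN1 than in HDG4 (9.80% of all probe sets), but AT5G01870 was absent on all HDG4 and 2 of 3 KAN1 arrays, and its bound there is at least 1.13-fold.

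Of 8 other genes of the GPI-anchored type, 3 passed the filter. LTPG6 followed LTPG1 and LTPG2, 49.6-fold higher in the epidermis than in vascular cells (log2 5.63 ± 0.19, limma adjusted p = 4.88e-12) and 23.0-fold higher than in HDG4. XYP2, a xylogen protein of vessel differentiation, was at least 35.3-fold lower in the epidermis than in vascular cells (limma adjusted p = 1.71e-07), with means of 1769 in AtHB8 and 562 in S17. XYP1, its relative, had means of 1756 to 5077 and was not called in any of the 7 comparisons. It did differ by less than 2-fold. The epidermis exceeded vascular cells 1.74-fold (limma adjusted p = 3.9e-05), and AtHB8 exceeded S17 1.91-fold (limma adjusted p = 0.00105). LTPG3, LTPG4 and LTPG5 were called absent on all arrays of every population. The 4 hybrid proline-rich relatives AZI1, EARLI1, AT4G12490 and AT4G12500 were likewise absent on all arrays, with summed signals of at most 138.

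**Figure D4:**
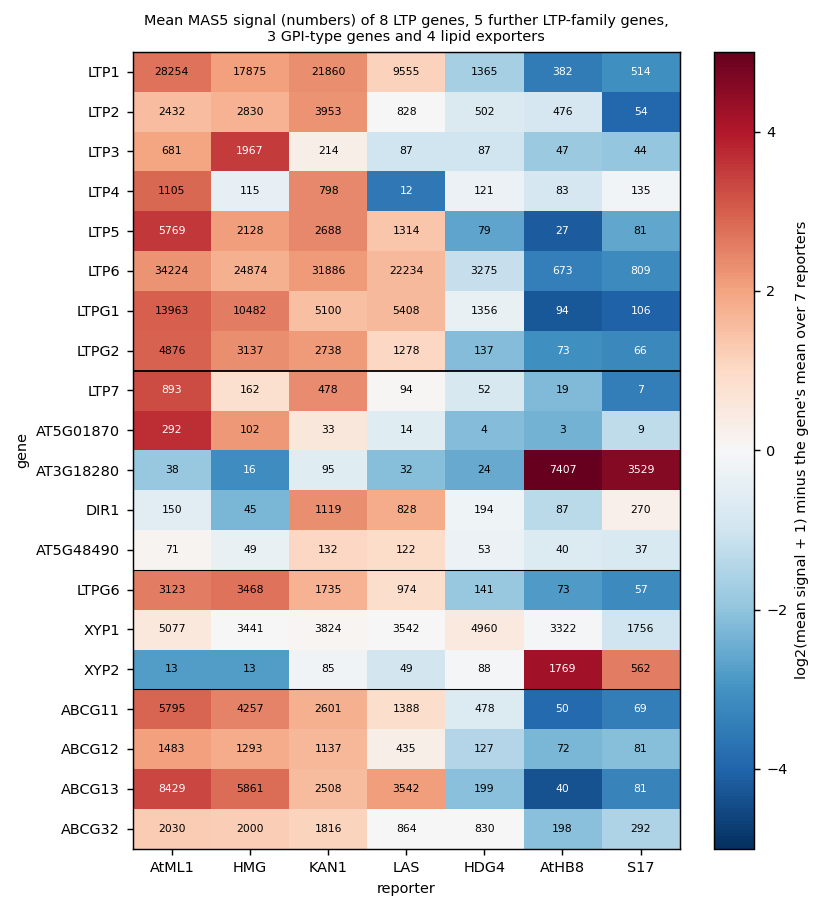
Mean MAS5 signal (numbers) per reporter for the 8 tested genes, 5 further lipid transfer protein genes, 3 of the GPI-anchored type and 4 lipid exporters. Colour is the log2 of mean signal + 1 minus the gene's mean over the 7 reporters, so colours compare populations within a gene. AT3G18280 and XYP2 are high in AtHB8 and S17, where LTP1, LTP5, LTP6, LTPG1, LTPG2, LTPG6 and the ABCG genes are low.

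The exporters that pass cuticular lipids across the plasma membrane are ABCG11, ABCG12, ABCG13 and ABCG32. All 4 were called higher in the epidermis than in vascular cells (13.0% of all probe sets) and than in HDG4 (5.69%). All 4 were also called higher in KAN1 than in HDG4 (9.80%). ABCG13 was 135-fold and ABCG11 85.0-fold higher in the epidermis than in vascular cells (limma adjusted p = 1.95e-10 and 1.04e-11), and ABCG12 was 17.8-fold higher. Of the 4, 3 were called higher in the epidermis than in LAS (3.89% of all probe sets). Against KAN1, 1 was called higher in the epidermis (2.60% of all probe sets), namely ABCG13 (2.76-fold, limma adjusted p = 0.0218). None was called between AtML1 and HMG.

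Since LTP3 and LTP4 answer to abscisic acid and protoplasting can stress cells, 9 abscisic acid, stress and wound genes were set beside them, of which 8 had a probe set and 6 passed the filter. None was called between AtML1 and HMG, where LTP3 and LTP4 were, though LOX3 was lower in AtML1 by less than 2-fold (log2 -0.80 ± 0.15, limma adjusted p = 0.00589) and RD29A differed by -1.19 ± 0.65 (limma adjusted p = 0.249). The abscisic acid markers RD29B and COR15A failed the filter, and RAB18 was called absent on all AtML1 and HMG arrays. In the epidermis against vascular cells 3 of the 6 were lower and none higher, beside 2425 lower of all 15149 probe sets, namely RD29A (4.25-fold, limma adjusted p = 0.000692), RAB18 (at least 3.63-fold, limma adjusted p = 0.0018) and the jasmonate gene LOX3 (3.59-fold, limma adjusted p = 6.9e-10). RAB18 alone was called between KAN1 and the epidermis, at least 3.53-fold higher in KAN1 (limma adjusted p = 0.0248, beside 6.29% of all probe sets). RAB18 alone was also called between KAN1 and HDG4, at least 4.47-fold higher in KAN1 (limma adjusted p = 0.0197, beside 9.80%). LOX3 alone was called between epidermis and LAS, 2.19-fold higher in the epidermis (limma adjusted p = 0.000128, beside 3.89%). TCH4, ZAT10 and ZAT12 had means of 8486 to 26119 across the populations. The part of the handling in the LTP3 and LTP4 signals was not tested.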

How the data were processed

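Per the labels' protocols, RNA was extracted with an RNeasy kit and biotin-labelled by the Affymetrix protocol. The deposited intensity values are MAS5 signals, per the submitters' processing notes, and the program's version is not given in the sources used here. The authors' deposited table of averaged intensity gave each locus its probe set and the detection calls (present, marginal or absent) per array, and its means matched those computed here within 0.005. No scanner files were used here. No 2 arrays held identical values.

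Groups came from the sample titles. The 64 control probe sets did not enter the fit. To be tested, a probe set had to reach the 40th percentile of the array's signals on every array of some reporter, as 15149 of 22746 did. limma 3.58.1 (R 4.3.3, statmod 1.5.0) was fitted to log2(signal + 1) with 1 mean per reporter over 19 arrays. Tests were two-sided, with Benjamini-Hochberg adjustment over all probe sets tested. Folds are on the log2(signal + 1) scale and understate changes of dim genes. The fit was also run on simulated data with independent normal noise as a check of the code, and no result here rests on that run.

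The 9 genes and the gene lists were chosen with earlier results of these data known. All 9 genes are named, with up to 3 per list by moderated F, and per gene the 3 probe sets with the highest r. Exporters, absent relatives and stress genes beyond these were named after their values were seen. Alternatives were another pseudocount (16), another filter percentile (60), no filter, no fold minimum, quantile normalisation, array weights, an intensity trend with a robust prior, a replicate block and leaving out each array. Symbols came from RefSeq's gene table and the deposited table. No sequences and no coordinates are printed.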

Additional observations from a re-analysis of the deposited data

How the results depend on the processing

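The 56 differences of the 8 tested genes over 7 comparisons were recomputed under 8 other settings, which gave 448 values, 441 of them with the same direction and side of the threshold, 1 that lost its call, 6 that gained one and none with the opposite sign. The lost call was LTP5 between AtHB8 and S17 without the filter on low signals (limma adjusted p = 0.0674), which left 1 gene called in that comparison, where 15149 or, without the filter, 22746 probe sets were tested. Calls were gained for LTP5 with a pseudocount of 16, in the epidermis against LAS (limma adjusted p = 0.0226) and in AtML1 against HMG (0.0277). Array weights added LTP2 (0.0496) and LTP5 (0.0377) against LAS and LTP4 as lower in the epidermis than KAN1 (log2 -1.35, limma adjusted p = 0.0212), and raised the probe sets called between AtML1 and HMG from 759 to 1335. Without a fold minimum the probe sets called were 3089, 2913, 1441, 9205, 4520, 2358 and 1603 for the epidermis against HDG4, KAN1, LAS and vascular cells, KAN1 against HDG4, AtHB8 against S17 and AtML1 against HMG, in place of 1460, 1347, 904, 4389, 2236, 1297 and 759, since smaller differences then count. The cause of the other changes was not tested.

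The labels do not say whether replicate numbers pair the arrays, and correlations of deviations from means of 2 or 3 arrays cannot settle it. Of 46 pairs of arrays with the same number, 3 correlated above 0.1 (median 0.00430), and 7 of the 19 arrays correlated best with their own number. With the replicate number as a block, LTP4 was also called lower in the epidermis than in KAN1 (log2 -1.15, limma adjusted p = 0.0236), giving 3 genes in that comparison, and the counts of genes called in the other comparisons did not move.

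Leaving out each array in turn gave 1064 values, of which 15 lost a call, 6 gained one and 9 changed sign, all 9 in differences that were not called. Genes called ranged from 3 to 6 in the epidermis against LAS, from 1 to 2 in AtHB8 against S17 and from 0 to 3 in AtML1 against HMG, where probe sets called ranged from 359 (without AtML1 replicate 1) to 1192 (without HMG replicate 1), and from 527 (without LAS replicate 1) to 968 against LAS. LTP4 was called lower in the epidermis than in KAN1 without HDG4 replicate 4 (limma adjusted p = 0.0286). The log2 differences that changed sign were LTP1 in the epidermis minus KAN1 (-0.052 to 0.117), LTP2 in AtML1 minus HMG (-0.84 to 0.30) and, in AtHB8 minus S17, LTP3 (-0.045 to 0.234), LTP6 (-0.47 to 0.21), LTPG1 (-0.32 to 0.21) and LTPG2 (-0.033 to 0.301). Dim signals limit LTP2, LTP3, LTP4 and LTP5 in the populations where they were called absent.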
